A study of Caenorhabditis elegans with 10 samples.

Results

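Short circRNA loci were taken as every row of the deposited circRNA count table whose end lies less than 500 nt after its start, and 58 of the 141 loci met this rule. None was left out for its host gene. The other 83 loci served as the comparison. Spans of the 58 ran from 146 to 497 nt with a median of 330.5 nt, against 528 to 13433 nt with a median of 1240 nt for the other loci. The counts came from total RNA of whole hermaphrodites on day 3 of adulthood, with 5 independent biological replicates of the wild-type strain N2 (Bristol) and 5 of the *nova-1(tm6146)* deletion strain, VDL1105, which had been outcrossed. Both genotypes were fed *E. coli* OP50 and moved to FUdR, which blocks production of progeny, at the L4 larval stage. The mutant is a single deletion allele carried by every cell of the animal, and RNA of all tissues was extracted together, so that fewer cells of a type and less RNA per cell cannot be told apart in any value below.

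A circRNA forms when the spliceosome joins the end of an exon to the start of the same exon or of an exon upstream, a step called back-splicing. The closed molecule has no free ends and resists exonucleases, and circRNAs build up in the ageing nervous system of several animals. Some circles hold a single exon, and these usually arise from exons that lie between long introns. NOVA proteins are RNA-binding proteins with KH domains that regulate alternative splicing in neurons, and *nova-1* is their *C. elegans* member.

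Short circles of a single host can differ by a few bases, and the pair from *crh-1*, the worm CREB transcription factor, shows how. Its loci span 204 nt (cel_circ_0000439) and 210 nt (cel_circ_0000438), lie on chromosome III, end at the same base and start 6 nt apart. The forward primers that the study designed to tell them apart across the back-splice junction are shown 5′ to 3′, with capitals for the 6 extra bases of the longer circle. Their place is ambiguous by 3 bases and was set so that they end in AG, the letters that introns usually end in. Both were paired with the same reverse primer.
cel_circ_0000439 forward: gcttcacagcccaaagtcag
cel_circ_0000438 forward: cacagcccaaagTTTCAGtc
shared reverse: cattgctggatggcagaatc

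Most short loci were the size of annotated exons. In the Ensembl WBcel235 annotation, 49 of the 58 had the span of a run of consecutive exons of a transcript there, and 35 of these 49 (71.4%) were a single exon, 12 held 2 exons and 2 held 3. Of the 72 other loci with such a match, 9 (12.5%) were a single exon. The exonic length of the matched short loci had a median of 312 nt (193 to 494 nt), against 166 nt for all annotated exons of protein-coding genes. The matched other loci had a median of 509.5 nt (180 to 2395 nt). Among short loci the median was 312 nt for single exons and 286 nt for 2 or 3 exons, so a short span did not mean a single exon was the smaller circle. The introns around the matched short loci were long, with medians of 1360 nt upstream and 1201 nt downstream, against 68 nt for all introns of protein-coding genes. At the matched other loci the medians were 1387.5 nt upstream and 1719 nt downstream. Both flanking introns exceeded 500 nt at 40 of the 46 short loci that had both and at 48 of 68 other loci, whereas 18.6% of all introns did. Long introns were therefore found in both classes of circRNA locus. Both exceeded 500 nt at a larger part of the short loci, whereas the medians were longer at the other loci. The 18.6% counts single introns, whereas the counts by locus require both introns to be long. No test was run on these lengths.

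The remaining 9 of the 58 matched no run of exons. They were the loci listed for *vit-6*, *col-181*, *clik-2*, *daf-25*, *W10D9.8*, *gly-4* and *sec-23* and 2 loci on chromosome V with no listed host. Whether these 9 loci are back-spliced circles was not tested. As listed, the *vit-6* and *col-181* intervals fell inside a single exon and the *gly-4* interval inside an intron. The locus at 18529389 to 18529840 overlapped a pseudogene (WBGene00077653), and the locus at 18956094 to 18956423 overlapped *hrg-10*. The listed host can also differ from the annotation, and the row listed for the ribosomal RNA gene *rrn-3.1* had the span of an exon of *hmr-1*, which encodes a classical cadherin. Coordinates are those of the table, whose starts lay between 3 nt after and 120 nt before the matching exon starts.

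Library totals over the 141 loci ran from 7955 to 15014 counts, and the short loci received 3636 to 11976 of them. Wild-type replicate 1 stood apart before any test, with the largest total (15014) and the lowest TMM factor (0.70, against 0.92 to 1.22 in the other libraries). For several results that turn on this library, values without it are also given. No row of the table lies in *nova-1* itself, so the genotype labels could not be checked through the deleted gene.

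Short loci took most of the counts over the 141 deposited loci in wild-type animals and a smaller share in *nova-1* mutants. The study detected more circRNAs than these, so the shares are not of all circRNA in the animals. In wild-type replicates 1 to 5 they took 79.8, 68.6, 67.1, 65.4 and 58.2% of the counts (67.8 ± 7.78%, SD, n = 5). In *nova-1* replicates 1 to 5 they took 39.5, 42.7, 45.8, 52.5 and 50.7% (46.2 ± 5.41%, SD, n = 5). The groups did not overlap, and the wild-type mean was 64.8% without replicate 1. Of all counts, the 9 short loci without an exon match took 46.2 ± 10.6% in wild-type and 20.4 ± 3.15% in *nova-1* (SD, n = 5). The 49 matched short loci took 21.6 ± 3.12% and 25.9 ± 2.67%, with overlapping groups.

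**Figure D1:**
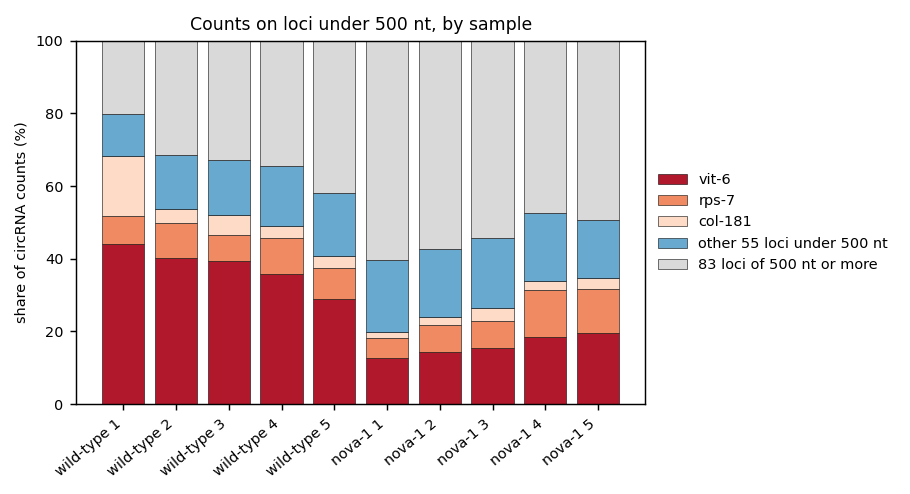
Share of circRNA counts (%) in each of the 10 samples, stacked by locus: *vit-6*, *rps-7*, *col-181*, the other 55 loci under 500 nt and the 83 loci of 500 nt or more. The *vit-6* block averages 37.6% in wild-type and 16.1% in *nova-1*, and the *col-181* block is tall only in wild-type replicate 1.

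Most of the fall in the share of all short loci lay in a single locus. The *vit-6* locus, in a gene for a vitellogenin yolk protein, took 37.6 ± 5.69% (SD, n = 5) of wild-type counts and 16.1 ± 2.93% (SD, n = 5) of *nova-1* counts. The *rps-7* circle, from a small ribosomal subunit protein gene, took 8.65 ± 1.18% and 9.06 ± 3.19%. The *col-181* locus, in a cuticle collagen gene, took 6.53 ± 5.65% and 2.63 ± 0.79%. The other 55 short loci together went the opposite way, with 15 ± 2.23% in wild-type and 18.5 ± 1.46% in *nova-1*, in shares of a total that is bound to 100%. Counted only among loci other than these 3, the 55 took 32.3 ± 2.48% in wild-type (29.4 to 36.2%) and 25.6 ± 1.54% in *nova-1* (24.5 to 28.1%), again without overlap. That remainder still holds *zip-2*, a longer locus that is among the 3 of largest mean count. Without *vit-6*, *zip-2* and *rps-7*, the short loci took 45.0 ± 8.20% in wild-type and 35.2 ± 2.72% in *nova-1*. Those groups overlapped (38.6 to 59.2% and 32.3 to 39.2%). Among loci with an exon match only, the short ones took 43.2 ± 3.75% and 34.0 ± 4.52%, and those groups overlapped.

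Single short loci otherwise were modest in level. The mean normalized count of a short locus, given per mean effective library (9421 counts), had a median of 21.5 (4.43 to 2691), against 25 for the other loci. It was under 10 at 8 short loci and over 100 at 5 (*vit-6*, *rps-7*, *col-181*, *Y22D7AR.6* and the 204-nt *crh-1* circle). The coefficient of variation within a genotype had a median of 34.4% in wild-type and 33.8% in *nova-1*. Across the 58 loci the span and the mean count had a Spearman correlation of -0.31, which describes loci that share the same libraries.

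In the comparison of genotypes, short loci changed in both directions, led by rises at *lin-1*, *Y22D7AR.6* and *zip-12* and falls at *vit-6*, *col-181* and an unnamed locus on chromosome V. At the unadjusted threshold in the study's methods, an absolute log2FC above 0.5 and *P* under 0.05, 9 short loci rose and 12 fell in *nova-1* mutants. That is 36.2% of them, against 40.4% of all 141 loci (21.3% higher and 19.1% lower). At an adjusted *P* under 0.05, the form of threshold in the study's results, 4 rose and 8 fell, or 20.7% against 28.4% of all loci (15.6% higher and 12.8% lower). Without wild-type replicate 1, 7 rose and 10 fell at that threshold, out of 48 calls over all loci. The genotypes did not overlap at 13 short loci (22.4%), with 5 higher and 8 lower, against 24.8% of all loci (14.9% higher and 9.93% lower). Taking both directions together, the short loci changed no more often than the table as a whole by each count. With all libraries, rises were rarer and falls slightly more common among them than over all loci, and this was not tested.

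**Figure D2:**
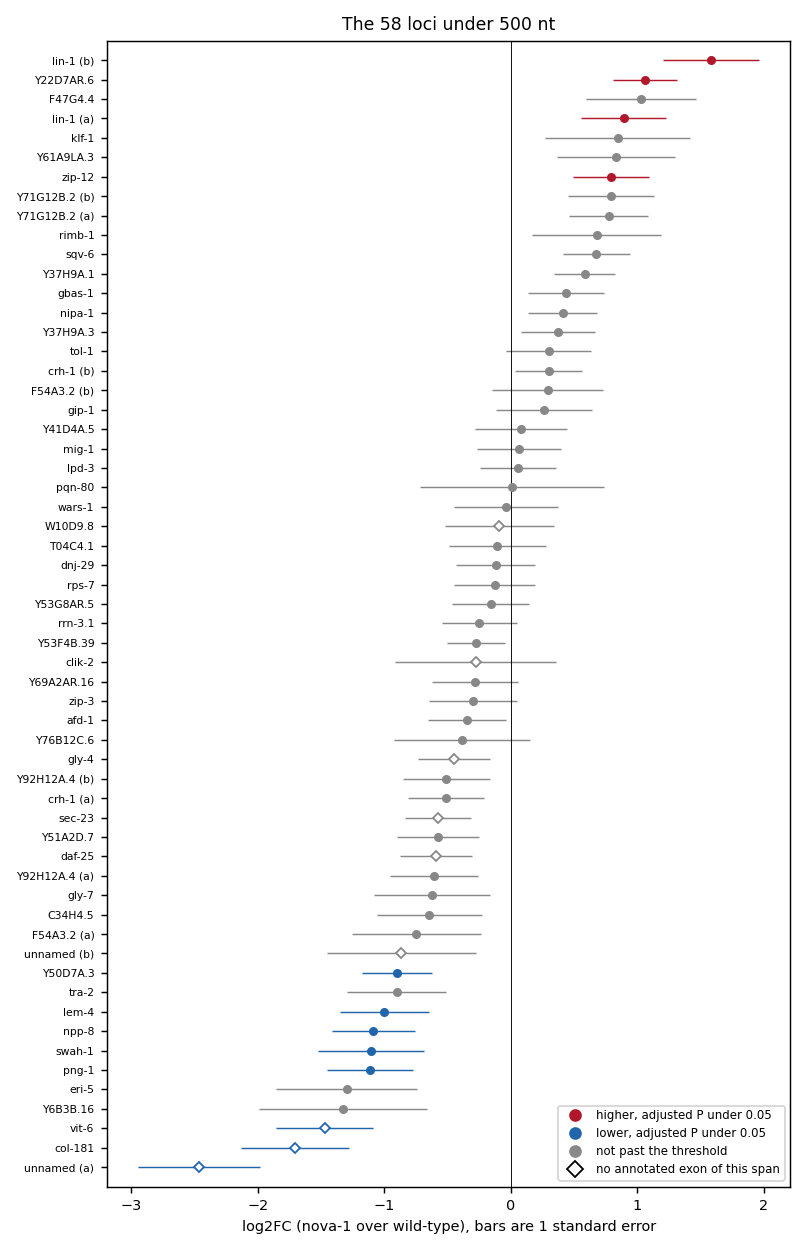
log2FC (*nova-1* over wild-type) of the 58 short loci in order of size, with bars of 1 standard error; red and blue mark loci past an adjusted *P* of 0.05, and open diamonds mark the 9 loci without an annotated exon of their span. The values run from -2.47 to 1.58, and all 9 diamonds lie below 0 (a and b are the loci of a host in order of start).

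The log2FC was negative at 35 of the 58 and positive at 23, with a median of -0.21 (quartiles -0.62 and 0.35), against -0.06 for the other 83 loci and -0.10 for all 141. The median absolute log2FC was 0.58 for short loci and 0.52 for the others. The standard error of a single short locus had a median of 0.34. Without wild-type replicate 1 the median log2FC was -0.048 for the short loci and -0.024 for the others. The medians also depended on the scaling, because with plain column totals the median of all loci moved from -0.10 to 0.14, that of the short loci became 0.066, and the calls over all loci changed from 30 higher and 27 lower to 35 higher and 16 lower.

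The 9 loci without an exon match differed from the rest in their values. With all libraries, all 9 had a negative log2FC (median -0.59), with 0 rises and 5 falls at the unadjusted threshold (21.3% of all loci rose and 19.1% fell). The 49 matched short loci had 9 rises and 7 falls and a median of -0.11. The 11 longer loci without an exon match had 3 positive and 8 negative values, 2 rises, 3 falls and a median of -0.38. This split was made after the data were seen, and no test was run on it. Wild-type replicate 1 was the highest wild-type library at 8 of the 9, against 13 of the 49. The ratio of its normalized count to the median of wild-type replicates 2 to 5 had a median of 1.62 over the 9 and of 0.85 over the 49. The largest ratios were 7.95 at the *hrg-10* locus, 7.84 at *clik-2* and 6.23 at *col-181*. In wild-type replicates 2 to 5, *clik-2* had 5.97, 1.17, 2.38 and 3.11, against a mutant mean of 5.80. The *hrg-10* locus had 2.99, 4.66, 8.35 and 4.15 there, against a mutant mean of 6.01. At both loci most of these values lay below the mutant mean, so the all-negative pattern rested in part on wild-type replicate 1. The part of this library in the falls of the 9 as a set was not tested.

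**Figure D3:**
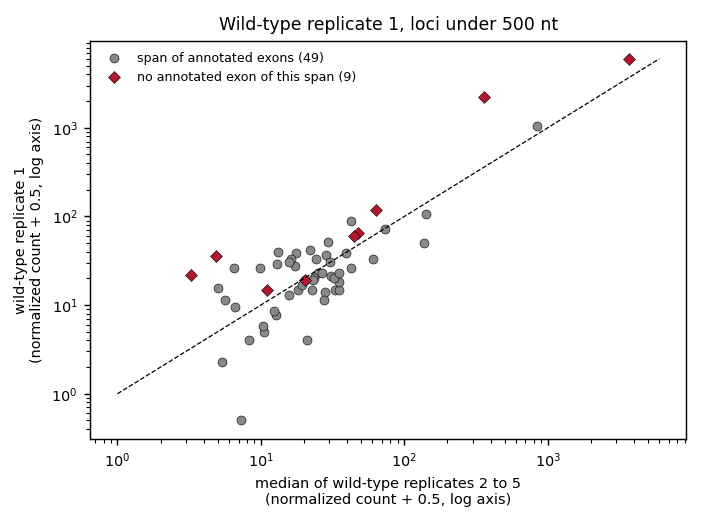
Normalized count plus 0.5 in wild-type replicate 1 (vertical, log axis) against the median of wild-type replicates 2 to 5 (horizontal, log axis) for the 58 short loci; the dashed line marks equal values. Red diamonds are the 9 loci without an annotated exon of their span, and 3 of them lie 6.23 to 7.95 times above the other replicates.

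The 3 short loci of highest count were listed for genes of abundant secreted and ribosomal proteins. Of these, 2 fell at the adjusted threshold, against 12.8% of all loci. The 2 were *vit-6* and *col-181*, which have no exon match. This group was made with earlier results of the data known. The *vit-6* locus (227 nt, chromosome IV) had normalized counts of 5928, 4105, 3933, 3389 and 2424 in wild-type replicates 1 to 5. In *nova-1* replicates 1 to 5 it had 975, 1217, 1286, 1728 and 1923. Every mutant library lay below every wild-type library. The log2FC was -1.47 (SE 0.38, adjusted *P* = 0.00483 in edgeR's quasi-likelihood test), and it was -1.26 (adjusted *P* = 6.07e-05) without wild-type replicate 1.

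The *col-181* locus (146 nt, chromosome X) is the shortest of the table, and the size of its fall turned on a single library. It passed the adjusted threshold in all 10 fits without a replicate. Its normalized counts were 2227, 397, 549, 317 and 289 in wild-type and 133, 176, 310, 238 and 305 in *nova-1*. Wild-type replicate 1 was about 4 times the next library, and the remaining wild-type values overlapped those of the mutant. The log2FC was -1.71 (SE 0.43, adjusted *P* = 0.00406) with that library and -0.72 (adjusted *P* = 0.0038) without it. Collagens are a multigene family with similar coding sequences, and reads could be shared among them.

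The *rps-7* circle (365 nt, chromosome I) did not pass the threshold. Its counts were 1048, 991, 729, 950 and 713 in wild-type and 419, 643, 626, 1193 and 1175 in *nova-1*. The mutant libraries spanned a wider range that enclosed the wild-type values. The log2FC was -0.13 (SE 0.32, adjusted *P* = 0.835), and its sign turned with plain column totals (0.066).

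Circles from transcription factor genes made up 3 of the 4 rises at the adjusted threshold. Of 7 such loci, which come from 5 hosts, 3 rose and 0 fell, with a median log2FC of 0.79, against 15.6% of all loci higher and 12.8% lower. Of the 3 rises, 2 were the same *lin-1* circle listed 1 nt apart. These hosts were grouped with earlier results of the data known. LIN-1 is an ETS-domain transcription factor that acts downstream of Ras and MAP kinase in vulval development. Its single-exon circle (289 nt, chromosome IV) is listed as loci starting at 2278891 and 2278892, which differ by 1 nt at each end.

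The *lin-1* locus starting at 2278892 had counts of 5.39, 11, 9.32, 7.15 and 10.4 in wild-type and 22.1, 35.9, 37.5, 12.5 and 21.8 in *nova-1*. The groups did not overlap, and the log2FC was 1.58 (SE 0.38, adjusted *P* = 0.00286). The *lin-1* locus starting at 2278891 had 12.6, 11.9, 18.6, 25 and 7.26 in wild-type and 31.9, 24.0, 25, 24.0 and 33.8 in *nova-1*. Only wild-type replicate 4 reached the mutant range there, and the log2FC was 0.89 (SE 0.33, adjusted *P* = 0.0458), a call that was lost in 6 of 10 fits without a replicate and with RLE factors (0.86, adjusted *P* = 0.0509). Reads of a pair 1 nt apart can be split between scaffolds, and the pair summed gave 1.18 (SE 0.26, adjusted *P* = 0.00179).

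The third call was the *zip-12* circle (348 nt, chromosome III) from a bZIP transcription factor gene. It had counts of 19.7, 30.9, 11.7, 16.7 and 29 in wild-type and 51.5, 31.9, 38.4, 34.4 and 31.7 in *nova-1*. The lowest mutant library lay just above the highest wild-type library. The log2FC was 0.79 (SE 0.30, adjusted *P* = 0.0478), and the call was lost in 7 of 10 fits without a replicate and with DESeq2 (0.75, adjusted *P* = 0.0662). Neither *crh-1* circle passed on its own, with log2FC values of 0.30 (SE 0.26) for the 204-nt form and -0.51 (SE 0.30) for the 210-nt form. *klf-1*, a Krüppel-like factor, had 0.84 (SE 0.57) at a mean count below 10, and *zip-3*, another bZIP factor, had -0.30 (SE 0.34).

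**Figure D4:**
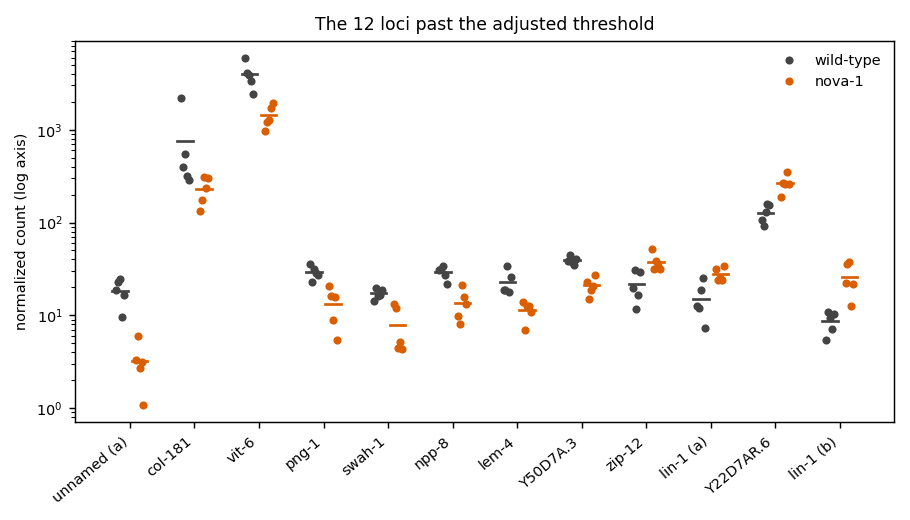
Normalized counts (log axis) of the 12 short loci past an adjusted *P* of 0.05, in order of log2FC, with a point for each of 5 wild-type and 5 *nova-1* replicates and a bar at the mean; "unnamed (a)" is the chromosome V locus over a pseudogene and lin-1 (a) and (b) are its loci in order of start. The groups overlap at *col-181* and at lin-1 (a) and at no other of the 12.

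Most of the other falls were spread over further host groups. These groups were made with earlier results of the data known, and no test was run across them. In RNA and protein synthesis 0 of 3 loci rose and 1 fell at the adjusted threshold, in adhesion, cytoskeleton and chromatin 0 of 4 rose and 2 fell, and in traffic, secretion and glycan 0 of 6 rose and 1 fell. Across all loci 12.8% fell. NPP-8 is a nucleoporin, and its circle (352 nt, chromosome IV) had counts of 30.5, 31.9, 33.8, 27.4 and 21.8 in wild-type and 9.82, 7.98, 21.4, 15.6 and 13.1 in *nova-1*. The highest mutant value lay just under the lowest wild-type value, and the log2FC was -1.09 (SE 0.33, adjusted *P* = 0.0142). With plain column totals the *npp-8* call was lost (-0.85, adjusted *P* = 0.064).

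PNG-1 is the peptide N-glycanase that removes N-linked sugars from misfolded glycoproteins. Its circle (279 nt, chromosome I) had counts of 35.9, 22.9, 31.5, 28.6 and 27 in wild-type and 20.4, 16, 8.92, 15.6 and 5.46 in *nova-1*. The groups did not overlap, and the log2FC was -1.11 (SE 0.34, adjusted *P* = 0.0152), a call lost with plain column totals (-0.85, adjusted *P* = 0.0818). LEM-4 belongs to the LEM-domain proteins of the nuclear envelope, and its circle (444 nt, chromosome IV) had 18.9, 18.9, 33.8, 17.9 and 25.9 in wild-type and 13.9, 6.99, 12.5, 12.5 and 10.9 in *nova-1*. It fell by 1.00 on the log2 scale (SE 0.35, adjusted *P* = 0.0326) without overlap.

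The *swah-1* circle (435 nt, chromosome I), which holds 3 exons, had counts of 14.4, 19.9, 16.3, 16.7 and 18.7 in wild-type and 13.1, 12, 4.46, 5.21 and 4.37 in *nova-1*. Replicates 1 and 2 were the highest of the mutant, and all mutant libraries lay under the wild-type values. The log2FC was -1.10 (SE 0.42, adjusted *P* = 0.0467). The *swah-1* call was lost in 7 of 10 fits without a replicate and the *lem-4* call in 5 of 10, and both were lost with plain column totals (adjusted *P* = 0.152 and 0.131).

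The other 2 loci called among hosts outside these groups were single exons on chromosome III that moved in opposite directions. *Y22D7AR.6* (259 nt) had counts of 106, 90.6, 129, 159 and 153 in wild-type and 188, 266, 258, 355 and 261 in *nova-1*. Every mutant library exceeded every wild-type library, and the log2FC was 1.06 (SE 0.25, adjusted *P* = 0.00271). *Y50D7A.3* (264 nt) had 38.6, 44.8, 37.3, 34.6 and 40.4 in wild-type and 22.9, 15, 18.7, 20.9 and 27.3 in *nova-1*. These groups did not overlap either, and the log2FC was -0.90 (SE 0.28, adjusted *P* = 0.0156), a call lost with plain column totals (-0.68, adjusted *P* = 0.114).

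The steepest fall was at the chromosome V locus with no listed host that starts at 18529389 (451 nt). Its counts were 18.9, 22.9, 24.5, 9.54 and 16.6 in wild-type and 3.27, 5.99, 2.68, 3.13 and 1.09 in *nova-1*. The lowest wild-type library exceeded the highest mutant library. The log2FC was -2.47 (SE 0.48, adjusted *P* = 0.000327). This locus lies 0.447 Mb from *nova-1*. A total of 5 short loci lay within 2 Mb of *nova-1*, with log2FC values from -2.47 to -0.04, of which only this passed the threshold. Variants that stayed linked to the deletion after outcrossing and the deletion itself cannot be told apart there.

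A further 9 short loci passed the unadjusted threshold but not the adjusted one. Higher values were called at *F47G4.4* (1.03), both loci of *Y71G12B.2* (0.77 and 0.79), *sqv-6* (0.68), which encodes the xylosyltransferase that starts glycosaminoglycan chains, and *Y37H9A.1* (0.58). The *Y71G12B.2* value of 0.79 became 0.45 without *nova-1* replicate 4, which had 70.9 against 22.9 to 35.7 in the other mutant libraries. At *F47G4.4*, *nova-1* replicate 5 had 30.6 against 11.5 to 14.3 in the others. Lower values were called at *eri-5* (-1.30), which encodes a Tudor-domain protein of endogenous RNA interference, *tra-2* (-0.90), the membrane receptor of sex determination, *daf-25* (-0.59), a ciliary protein, and *sec-23* (-0.57), a COPII coat subunit. The genotypes did not overlap at *F47G4.4*, *Y37H9A.1* and *eri-5* and overlapped at the rest.

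Among the 5 signalling and neuronal hosts, 0 passed the adjusted threshold (28.4% of all loci did) and the median log2FC was 0.06. At the unadjusted threshold 0 rose and 2 fell, *tra-2* and *daf-25*, against 21.3% and 19.1% of all loci. The *mig-1* circle, from a Frizzled receptor gene, had a log2FC of 0.06 (SE 0.33). The *tol-1* circle, from the worm Toll receptor gene, had 0.30 (SE 0.34), and *rimb-1*, which encodes a RIM-binding protein of presynaptic sites, had 0.68 (SE 0.51). The sixth most abundant short circle, *Y53F4B.39*, had 72.5 ± 13.6 and 59.9 ± 9.78 (SD, n = 5) and a log2FC of -0.28 (SE 0.23).

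Pairs of loci of a single host allow a comparison within each library, which no scaling can move. Of 7 pairs that share an end or lie within 10 nt, the *crh-1* pair had the largest shift relative to its spread. The 204-nt circle made up 65.9, 73.9, 77.4, 76.9 and 78.7% of the pair's counts in wild-type and 78.9, 85.1, 90.6, 79.9 and 89.1% in *nova-1*. The lowest mutant share lay just above the highest wild-type share. The means were 74.6 ± 5.16% and 84.7 ± 5.27% (SD, n = 5), a difference of 10.2 percentage points (p = 0.00794 by a two-sided exact permutation test, as low as 5 against 5 allows, and 0.0556 after Benjamini-Hochberg adjustment over the 7 pairs).

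**Figure D5:**
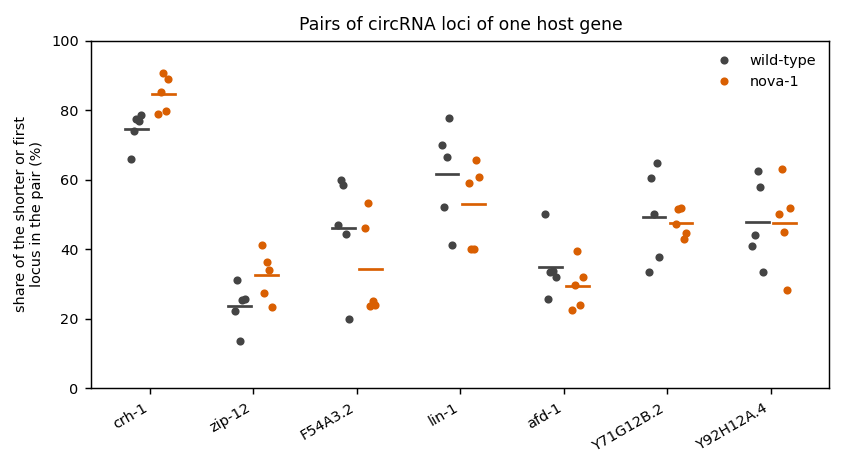
Share (%) of 1 locus in the summed counts of a pair of loci of the same host, for 7 pairs, with a point for each of 5 wild-type and 5 *nova-1* replicates and a bar at the mean. The *crh-1* shares, for the 204-nt circle, lie between 65.9 and 78.7% in wild-type replicates and between 78.9 and 90.6% in *nova-1* replicates, and in every other pair the groups overlap.

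The short *zip-12* circle, which shares its start with a locus of 1408 nt, made up 23.6 ± 6.45% of the pair in wild-type and 32.5 ± 7.12% in *nova-1* (SD, n = 5; exact permutation p = 0.0714, adjusted 0.25). The short *afd-1* circle, from the afadin gene, shares its start with a locus of 1230 nt and made up 34.9 ± 9.02% and 29.5 ± 6.86% (p = 0.357, exact permutation test). The pairs of *lin-1*, *F54A3.2*, *Y71G12B.2* and *Y92H12A.4* differ by 1 nt at each end, and exact permutation p for them ran from 0.27 to 0.976. At *F54A3.2* the log2FC values were -0.75 (SE 0.51) and 0.29 (SE 0.44), and at *Y92H12A.4*, which encodes the Integrator subunit INTS-3, they were -0.61 (SE 0.35) and -0.51 (SE 0.34). Such pairs were not independent loci.

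Most rises among short loci were at spans between 250 and 350 nt. Of the 12 loci under 250 nt, 0 rose and 3 fell at the unadjusted threshold (21.3% of all loci rose and 19.1% fell), of the 24 from 250 to under 350 nt, 8 rose and 3 fell, and of the 22 from 350 nt, 1 rose and 6 fell. The medians were -0.29, 0.17 and -0.33. The 8 rises include both loci of *lin-1* and both of *Y71G12B.2*, pairs that differ by 1 nt at each end. The limits of 250 and 350 nt were not planned. No test was run on these counts, and the Spearman correlation of span with log2FC over the 58 was -0.15. Single-exon loci (35), which hold the same pairs, had 8 rises and 5 falls, and the 14 loci of 2 or 3 exons had 1 and 2. At the limit of the class, the *gly-4* locus, for an enzyme that starts O-linked sugars, spans 497 nt (log2FC -0.45) and the *tol-1* circle 493 nt (0.30). Just outside it lay *M70.5* at 528 nt (0.53) and *tlp-1*, a zinc finger transcription factor gene, at 538 nt (1.73, adjusted *P* = 0.00026).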

How the data were processed

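Reads were processed by the study with HISAT2 v2.2.1 and BWA v0.7.18, circRNA loci were predicted with CIRI2 v2.0.6 and kept at 12 or more junction reads, and reads were mapped with Bowtie2 v2.5.4 to scaffolds of 200 nt around each junction, freed of duplicates with Picard and counted with featureCounts v2.0.1. The authors deposited raw counts for 141 loci in 10 samples, neither normalized nor pooled. The 58 loci and the host groups were chosen with earlier results of these data known.

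Host genes were taken from the study's list of detected circRNAs, with 50 short loci linked by identical coordinates, 6 by spans equal within 1 nt and starts no more than 150 nt apart, and 2 not linked. Exons came from the Ensembl release 115 annotation of WBcel235, matched by the same tolerances without converting coordinates. Authors' fold changes and p-values were not used.

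All 141 loci were tested with edgeR v4.0.16 (quasi-likelihood, R v4.3.3), TMM normalization on column totals, no covariate and no filter on low counts, with Benjamini-Hochberg adjustment over all loci. The log2FC is *nova-1* over wild-type, and its SE is the absolute log2FC divided by the square root of *F*. The procedure was tested on simulated data. Named loci were those past the adjusted threshold, the 6 of largest mean count, hosts with several short loci, both *crh-1* loci and the loci nearest 500 nt, and others were added after their values were seen. Alternatives were RLE factors, DESeq2 v1.42.0, other library sizes, a low-count filter, robust estimation, summed near-identical loci, a replicate block, spans below 400 or 600 nt, leaving out each replicate and, chosen after seeing the data, matched loci only. Totals of 7955 to 15014 counts leave low loci imprecise.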

Additional observations from a re-analysis of the deposited data

Results flagged for a closer look

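A single library lay far from the others of its group in 12 of 132 groups of 5 tested, against 6.6 expected by chance at 1 in 20. That rate holds for independent, normally distributed values. These groups share libraries and include low counts, so no conclusion was drawn from the excess. The groups were both genotypes of all 58 short loci, of the 7 pair shares and of the share of counts on short loci. Wild-type replicate 1 was that library at 6 loci. Its normalized count, with the range of the other wild-type libraries after it, was 2227 at *col-181* (289 to 549), 88.0 at the row listed for *rrn-3.1* (34.6 to 42.8), 41.3 at *Y37H9A.3* (19.7 to 25.6), 35.0 at the chromosome V locus in *hrg-10* (2.99 to 8.35), 30.5 at *T04C4.1* (13.5 to 16.9) and 21.5 at *clik-2* (1.17 to 5.97). In the mutant, *nova-1* replicate 4 had 70.9 at the *Y71G12B.2* locus starting at 1817302 (22.9 to 35.7 in the other mutant libraries), 34.4 at *gbas-1* (25.9 to 27.8) and 7.30 at *Y76B12C.6* (4.37 to 4.99). Replicate 5 had 30.6 at *F47G4.4* (11.5 to 14.3), replicate 2 had 35.9 at *T04C4.1* (10.4 to 16.1), and replicate 3 had the only low value, 35.7 at *nipa-1* (42.5 to 43.8).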

How the results depend on the processing

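Of the short loci, 4 rose and 8 fell at the adjusted threshold. Only 2 rose with RLE factors, a low-count filter, robust estimation, library sizes without the 3 largest loci, or matched loci only, and 9 rose with plain column totals. The falls were 3 with column totals, 5 with matched loci only and 5 for spans below 400 nt. The last 2 of these settings hold fewer short loci, 49 and 41. The 49 matched loci already had 5 falls in the main fit, and the limit of 400 nt changes the set and not the fit. At the unadjusted threshold the falls were 7 with column totals and 7 for spans below 400 nt. The median log2FC of short loci was 0.066 with column totals and -0.11 for spans below 400 nt, and that of the other loci was 0.16 with column totals and -0.17 without the 3 largest loci. Shares of counts on short loci were 45.0 and 35.2% without the 3 largest loci (*vit-6*, *zip-2* and *rps-7*), with overlapping groups, and 43.2 and 34.0% for matched loci. Leaving out each replicate gave 2 to 7 rises and 6 to 10 falls (adjusted), 7 to 10 rises and 9 to 14 falls (unadjusted), medians of -0.30 to -0.048 for short and -0.10 to 0.01 for other loci, and shares of 64.8 to 70.2% (wild-type) and 44.7 to 47.9% (*nova-1*). The 7 rises came without wild-type replicate 1. The sign turned for *rps-7* (0.066, column totals) and for the *F54A3.2* locus starting at 2246479 (-0.12 with the pair summed, and -0.061 without *nova-1* replicate 4, in a range of -0.061 to 0.45 over the fits without a replicate). The cause was not tested.

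Same-numbered libraries did not deviate together (correlations -0.15 to 0.20). With the replicate number as a block, 2 short loci rose and 5 fell at the adjusted threshold, and *vit-6* (-1.46, adjusted *P* = 0.069), *swah-1* (0.0527) and *lem-4* (0.0533) did not pass. Loci with few counts per library are limited by depth.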
